A study of Rattus norvegicus with 9 samples.

Results

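The miR-23, miR-27 and miR-24 clusters are a pair of related loci that each give rise to a miR-23, a miR-27 and a miR-24. Their 6 members described here were taken by name from the deposited table: rno-miR-23a-3p, rno-miR-27a-3p and rno-miR-24-3p, rno-miR-23b-3p and rno-miR-27b-3p, and rno-miR-23b-5p, the opposite arm of the miR-23b hairpin. They are 6 of 1422 listed miRNAs, of which 653 carry an annotated name and 769 are predicted entries. All 6 were among the 579 that passed the filter on low counts. The listed arms of the same hairpins outside this group, and rno-miR-3074, are given beside them.

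Small RNA was sequenced from primary neonatal rat cardiomyocytes, heart muscle cells taken from 1- to 2-day-old Sprague Dawley rats of wild-type genotype, 48 h after infection with an adenovirus and in normal glucose. Cells of the Ad-Yap WT group received a virus that overexpresses Yap, a co-activator of transcription and the main effector of the Hippo pathway. Cells of the Ad-Yap shRNA group received a virus carrying a hairpin against Yap, and cells of the Ad-GFP group received a virus carrying green fluorescent protein as the control, with 3 libraries in each group. No group carried a hairpin with another target, so the hairpin and the loss of Yap cannot be told apart, and the comparisons of both Yap viruses with Ad-GFP share the same 3 control libraries. The labels do not say whether the libraries of a group came from separate isolations, so a p-value speaks of the spread among these libraries alone. The table holds miRNAs and no mRNAs, and the level of Yap itself was not checked here.

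A microRNA is cut from a hairpin by Drosha and Dicer, and one of the hairpin's arms, the guide, is usually kept by an Argonaute protein while the opposite arm, the passenger, is mostly degraded. The guide finds its targets mainly through its seed, bases 2 to 8. Members of these clusters have been studied in the heart and its vessels: miR-23a in hypertrophic growth, miR-27 in lipid metabolism and blood vessel growth, and miR-24 in muscle cell survival and in the handling of calcium. The miRNAs of a locus are transcribed together and then cut out and loaded separately.

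The mature sequences are shown because they decide which members a read can be assigned to and which targets they share. They were taken from RefSeq (assembly GRCr8), where 587 of the 653 annotated entries matched by name, and capitals mark the seed. Each is written 5′ to 3′.
miR-23a-3p: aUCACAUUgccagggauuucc
miR-23b-3p: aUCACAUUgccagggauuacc
miR-27a-3p: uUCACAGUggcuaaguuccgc
miR-27b-3p: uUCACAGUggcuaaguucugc
miR-24-3p: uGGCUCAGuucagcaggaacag
miR-23b-5p: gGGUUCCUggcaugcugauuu

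Both miR-23 guides have the seed UCACAUU and both miR-27 guides the seed UCACAGU, and no other matched entry of the table has either. miR-24-3p (seed GGCUCAG) and miR-23b-5p (seed GGUUCCU) share their seed with 0 other matched entries. Counted from 1 at the 5′ end, miR-23a-3p and miR-23b-3p differ at a single base (U19A), as do miR-27a-3p and miR-27b-3p (C19U), outside the seed in each case. A read that ends before base 19 fits both paralogs, and the rule for assigning such reads is not stated, so the split between paralogs is uncertain. miR-24-3p is identical from both loci and its reads cannot be traced to one of them.

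On GRCr8, the hairpins Mir23b, Mir27b and Mir24-1 lie on the minus strand at chr17:1818669-1819482, a stretch of 814 bases inside the annotated span of the protein-coding gene Aopep. Mir23a, Mir27a and Mir24-2 lie on the minus strand at chr19:40859455-40859843, a stretch of 389 bases between Zswim4 and an uncharacterized long non-coding RNA gene. The files were made on rn6 per the submitters' processing notes, and hold no coordinates. The Mir23b hairpin (chr17:1819386-1819482, 97 bases) is shown because the largest change among the 6 members was in its 5p arm. The capitals mark the 5p arm first and the 3p arm after the loop.
Mir23b: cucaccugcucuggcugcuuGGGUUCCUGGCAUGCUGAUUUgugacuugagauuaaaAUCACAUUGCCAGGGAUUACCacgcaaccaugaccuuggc

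Depth differed between the groups. Summed miRNA counts per library ran from 1.93 to 2.95 M reads (M, 1e+06) in Ad-Yap WT, 1.48 to 2.09 M in Ad-Yap shRNA and 3.50 to 3.60 M in Ad-GFP. Of the library totals that the deposited RPM values imply, they made up 12.5 ± 4.62% in Ad-Yap WT, 8.26 ± 1.42% in Ad-Yap shRNA and 25.4 ± 0.770% in Ad-GFP (SD, n = 3 each). Levels below are CPM, counts per 1e+06 miRNA reads scaled by TMM among the miRNAs, so each change is relative to the bulk of the other miRNAs. Scaled by the implied totals in place of TMM, the median of all tested miRNAs lay at -1.26 (log2) for Ad-Yap WT and at -2.15 for Ad-Yap shRNA, each against Ad-GFP, and all 6 members then had negative values. The ratios of arms and of members further below are taken within a library and do not depend on this choice.

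The listed markers of cardiomyocytes were present in every library, and none of the 17 markers listed for 5 cell types was at 0. The summed level of the 5 cardiomyocyte markers (miR-1-3p, miR-133a-3p, miR-499-5p, miR-208a-3p and miR-208b-3p) was 46213 to 54951 CPM in Ad-Yap WT, 87253 to 103959 CPM in Ad-Yap shRNA and 46328 to 49978 CPM in Ad-GFP. The 3 fibroblast markers (miR-199a-5p, miR-199a-3p and miR-214-3p) summed to 13149 to 13835 CPM in Ad-Yap WT, 5136 to 5985 CPM in Ad-Yap shRNA and 14147 to 16496 CPM in Ad-GFP. The ranges of both sums in Ad-Yap shRNA lay apart from those of the other groups. Of the 5 cardiomyocyte markers, 3 passed as higher in Ad-Yap shRNA against Ad-GFP (edgeR), while miR-208a-3p (-0.09) and miR-208b-3p (0.39) did not pass. The endothelial sum and the smooth muscle and pericyte sum, given further below, were also highest in Ad-Yap shRNA. Of the 2 smooth muscle and pericyte markers, 1 passed as higher and 1 as lower against Ad-GFP. In such bulk samples, fewer cells of a type and less RNA per cell cannot be told apart.

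The 5 guides were abundant and the miR-23b passenger was not. By mean level over the 9 libraries, miR-24-3p ranked 10 of 579 at 26626 CPM, miR-23a-3p ranked 22 at 16292 CPM and miR-23b-3p 23 at 15218 CPM. miR-27a-3p followed at rank 25 with 13817 CPM and miR-27b-3p at rank 32 with 9309 CPM, while miR-23b-5p stood at rank 208 with 151 CPM. Together the 6 members took 8.02 ± 1.31% of miRNA reads in Ad-Yap WT, 7.73 ± 0.316% in Ad-Yap shRNA and 8.39 ± 0.314% in Ad-GFP (SD, n = 3 each). These ranges overlapped between all 3 groups except Ad-Yap shRNA and Ad-GFP.

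**Figure D1:**
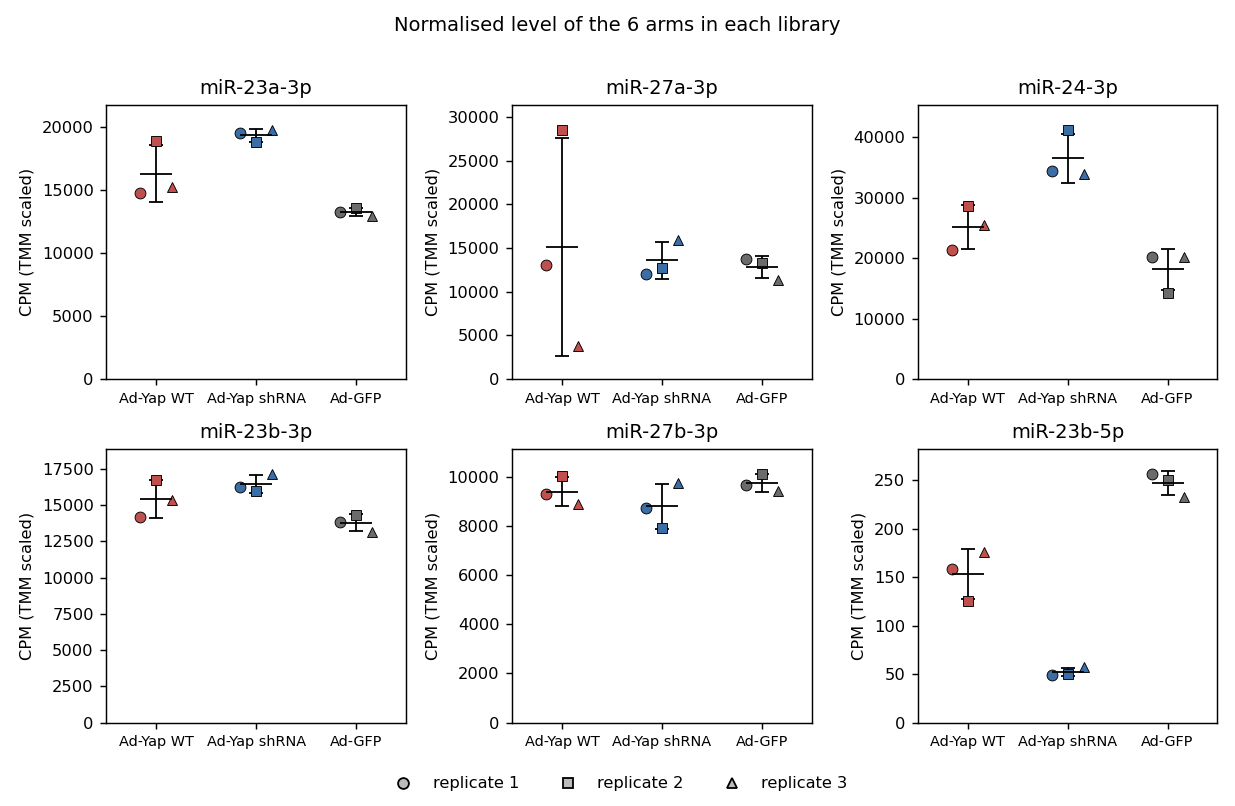
Level of the 6 members in each library, in CPM after TMM scaling (linear axis from 0), with 1 symbol per replicate, a line at the mean and bars of 1 SD (n = 3). miR-23b-5p separated all 3 groups, at 125 to 176 CPM in Ad-Yap WT, 49.1 to 57.1 CPM in Ad-Yap shRNA and 233 to 257 CPM in Ad-GFP, and miR-27a-3p spread from 3759 to 28487 CPM within Ad-Yap WT.

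miR-27a-3p was uneven among the Ad-Yap WT libraries and is described first, because every result on it in that group rests on which library is read. It had 13019, 28487 and 3759 CPM in Ad-Yap WT replicates 1, 2 and 3, against 12015, 12743 and 15955 CPM in Ad-Yap shRNA and 13683, 13330 and 11366 CPM in Ad-GFP. In CPM, Ad-Yap WT replicate 2 was the highest and replicate 3 the lowest of all 9 libraries, and the groups overlapped. The raw counts of the Ad-Yap WT libraries were 43133, 49460 and 7782 reads. They showed the low replicate 3, but replicates 1 and 2 lay closer together than in CPM. Replicate 2 also had fewer raw reads than Ad-GFP replicates 1 and 2 (60722 and 59419). The neighbour of miR-27a-3p on the hairpin, miR-27a-5p, had 940, 882 and 863 CPM in the 3 Ad-Yap WT libraries. There miR-27b-3p had 9281, 10023 and 8884 CPM. The log2 fold change of miR-27a-3p for Ad-Yap WT against Ad-GFP was 0.24 (SE 0.58, adjusted p = 0.818 by edgeR's quasi-likelihood test), and ran from -0.61 to 0.69 when single libraries were left out. For Ad-Yap shRNA against Ad-GFP it was 0.09 (SE 0.58, adjusted p = 0.927), with a standard error shared with the uneven group.

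Most of the members that passed did so with the knock-down virus. Against Ad-GFP and under TMM, 4 of the 6 members passed the edgeR test in Ad-Yap shRNA. Of these, 3 were higher (miR-24-3p, miR-23a-3p and miR-23b-3p) and 1 lower (miR-23b-5p). Of all tested miRNAs 41.8% passed in this comparison, 24.01% higher and 17.8% lower, so a count of 4 in 6 stands on a high background. The median log2 fold change of the 6 members was 0.17, beside 0.04 over all tested miRNAs.

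miR-24-3p is the most abundant of the 6, made by both loci and known in cardiomyocytes for its effect on the calcium release machinery. It had 34412, 41174 and 33915 CPM in Ad-Yap shRNA, against 20164, 14286 and 20137 CPM in Ad-GFP. Every Ad-Yap shRNA library lay above every Ad-GFP library, as for 55.3% of all tested miRNAs in either direction, and Ad-GFP replicate 2 was the lowest. It rose by a log2 fold change of 1.00 (SE 0.172, adjusted p = 0.00259, edgeR), and the value stayed between 0.86 and 1.09 whichever library was left out. The rise passed under each scaling taken from the miRNA counts, with 0.44 by cyclic loess and 0.41 by the summed miRNA count as the smallest values. Under the summed count the median of all tested miRNAs was itself -0.54. The value for miR-24-3p turned to -1.21 under the implied library totals, where it lay 0.94 above the median of all miRNAs. The summed cardiomyocyte, endothelial, and smooth muscle and pericyte markers were each higher in the same libraries, and their part in this difference was not tested.

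miR-23a-3p, known from rodent hearts as a promoter of hypertrophic growth, had 19532, 18772 and 19747 CPM in Ad-Yap shRNA, against 13239, 13558 and 12920 CPM in Ad-GFP. The groups did not overlap and each was tight, with a coefficient of variation of 2.65% in Ad-Yap shRNA and 2.41% in Ad-GFP. It rose by 0.55 on the log2 scale (SE 0.104, adjusted p = 0.00417, edgeR) with TMM, but the value was 0.06 (adjusted p = 0.617) by cyclic loess, it missed the threshold without a filter (adjusted p = 0.0613), and it was negative under the summed miRNA count (-0.05) and the implied totals (-1.65, adjusted p = 0.00126, edgeR). The rise also passed with RLE and upper quartile factors and with DESeq2.

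miR-23b-3p, the paralog with the same seed, had 16258, 15939 and 17169 CPM in Ad-Yap shRNA, against 13840, 14325 and 13155 CPM in Ad-GFP. The groups did not overlap, but the distance between them was small. It rose by 0.26 (SE 0.0861, adjusted p = 0.0444, edgeR), a call that was lost when any of 7 of the 9 libraries was left out, with RLE (adjusted p = 0.170) or upper quartile factors, with DESeq2 and under both other filters, the 2-group fit and the replicate block. Under the other 3 scalings it passed in the opposite direction, with -0.22 by cyclic loess (adjusted p = 0.0220, limma), -0.34 by the summed miRNA count (adjusted p = 0.00999, edgeR) and -1.95 under the implied totals (adjusted p = 0.000619, edgeR). With the reads of both miR-23 guides added together, which removes the uncertain split between them, the change under TMM was 0.40 (SE 0.0979, adjusted p = 0.0130, edgeR, a sum chosen after the data were seen). The sum was not fitted under the scalings in which miR-23b-3p reversed. Both of its parts were negative under the summed miRNA count (-0.05 for miR-23a-3p) and the implied totals (-1.65 for miR-23a-3p). The rise of the sum therefore does not hold under those scalings. By cyclic loess the parts had opposite signs (0.06 for miR-23a-3p), and the sum is open there. The same sums of cardiomyocyte, endothelial, and smooth muscle and pericyte markers were higher in these libraries here too, and their part was not tested.

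The miR-27 guides did not pass the test under TMM. miR-27b-3p, a regulator of lipid metabolism genes, had 8743, 7899 and 9735 CPM in Ad-Yap shRNA, against 9669, 10126 and 9417 CPM in Ad-GFP, and the groups overlapped. Its log2 fold change was -0.15 (SE 0.0963, adjusted p = 0.262, edgeR), with RLE and upper quartile factors and DESeq2 also short of the threshold. It passed as lower by cyclic loess (-0.54, adjusted p = 0.00251, limma), by the summed miRNA count (-0.75, adjusted p = 0.00130, edgeR) and under the implied totals (-2.35, adjusted p = 0.000409, edgeR). The summed miR-27 guides gave -0.02 (SE 0.347, adjusted p = 0.971, edgeR) under TMM, the only scaling fitted for this sum.

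**Figure D2:**
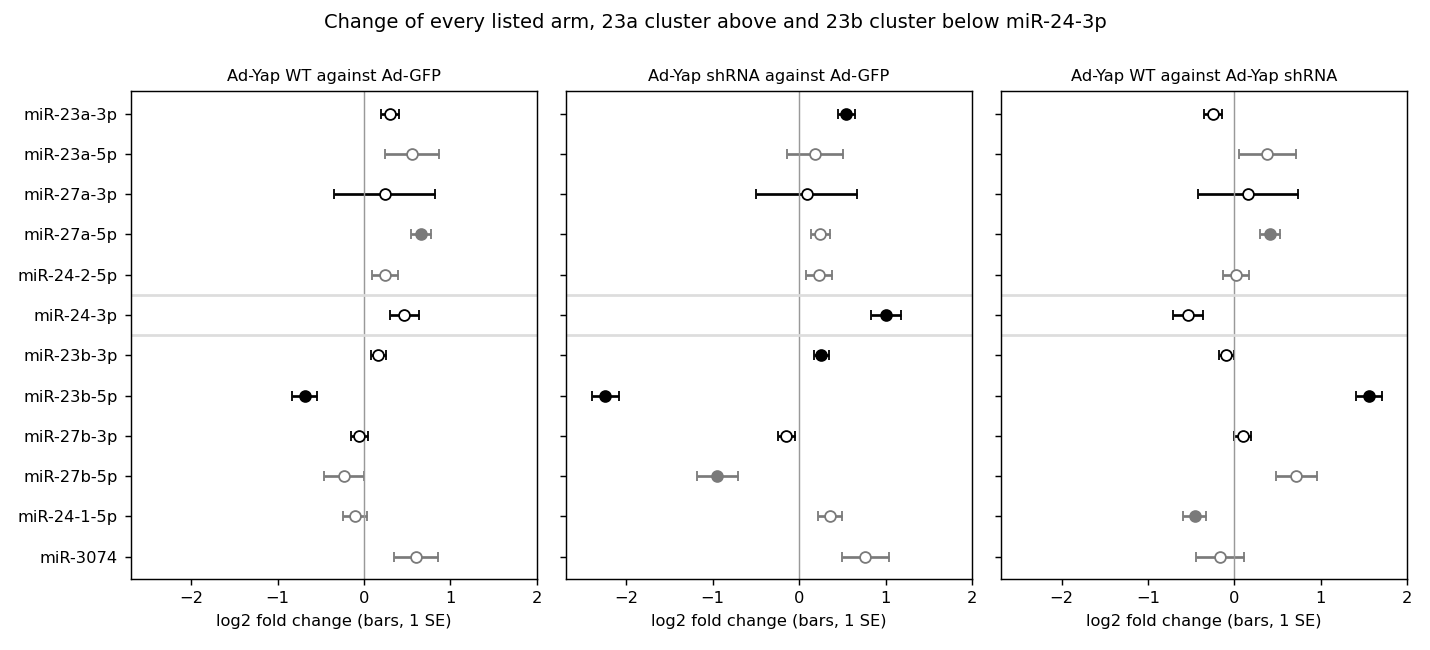
Log2 fold change of the 6 members (black) and of the other arms and miR-3074 (grey) in the 3 comparisons, with bars of 1 SE and filled symbols where the edgeR adjusted p is under 0.05. Under TMM, miR-23b-5p is the lowest point in the middle panel (-2.24) and miR-24-3p the highest (1.00, but -1.21 under the implied library totals).

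miR-23b-5p, the passenger arm of the miR-23b hairpin, was lower in Ad-Yap shRNA than in Ad-GFP. It had 91, 65 and 65 reads in Ad-Yap shRNA, which is 49.1, 50.3 and 57.1 CPM. In Ad-GFP it had 1140, 1117 and 984 reads, or 257, 251 and 233 CPM. The groups lay far apart, and the counts in Ad-Yap shRNA, though low, were close to each other in CPM. It fell by 2.24 on the log2 scale (SE 0.154, adjusted p = 6.11e-05, edgeR), the largest change among the members. The fall passed under every scaling and with every library left out (-2.29 to -2.18). The summed fibroblast markers and the summed blood cell markers were lower than in Ad-GFP in the same libraries, and their part in this fall was not tested.

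In Ad-Yap WT the passenger moved in the same direction by less. It had 526, 217 and 365 reads or 159, 125 and 176 CPM, below all 3 Ad-GFP libraries and above all 3 Ad-Yap shRNA libraries. The fall against Ad-GFP was a log2 fold change of -0.69 (SE 0.147, adjusted p = 0.0139, edgeR), which just missed the threshold without Ad-GFP replicate 1 (adjusted p = 0.0502). Set directly against each other, Ad-Yap WT was higher than Ad-Yap shRNA by 1.56 (SE 0.151, adjusted p = 0.000344, edgeR). Both Yap viruses thus lay below the control, and the knock-down lay lower.

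Against Ad-GFP, miR-23b-5p was the 1 member of 6 that passed in Ad-Yap WT, where 25.04% of all tested miRNAs passed and 9.67% passed lower. The median of the 6 members was 0.20, beside 0.03 over all tested miRNAs. miR-23a-3p had 14733, 18879 and 15243 CPM in Ad-Yap WT, above all 3 Ad-GFP libraries, with a log2 fold change of 0.30 (SE 0.104, adjusted p = 0.0687, edgeR). miR-24-3p had 21410, 28614 and 25523 CPM in Ad-Yap WT, also above all 3 Ad-GFP libraries, with 0.47 (SE 0.171, adjusted p = 0.0781, edgeR). Libraries of this comparison did not overlap for 47.3% of all tested miRNAs. miR-23b-3p had 14154, 16751 and 15373 CPM in Ad-Yap WT, which overlapped Ad-GFP, and a log2 fold change of 0.16 (adjusted p = 0.195, edgeR), while miR-27b-3p had -0.05 (adjusted p = 0.750, edgeR). With the summed miRNA count miR-27b-3p passed as lower (-0.37, adjusted p = 0.0473, edgeR), as it did under the implied totals (-1.36, adjusted p = 0.0182, edgeR).

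Between the Yap viruses, miR-23b-5p was again the 1 member of 6 that passed, where 28.5% of all tested miRNAs passed, 14.2% higher and 14.3% lower. miR-24-3p lay lower in all 3 Ad-Yap WT libraries than in all 3 Ad-Yap shRNA libraries, with a log2 fold change of -0.54 (SE 0.171, adjusted p = 0.0504, edgeR). That value sat at the threshold: it passed with RLE factors (adjusted p = 0.0402) and DESeq2 (adjusted p = 0.0109), and was positive under the implied library totals (0.31, adjusted p = 0.485). miR-23a-3p had -0.25 (adjusted p = 0.110, edgeR), and miR-23b-3p, miR-27a-3p and miR-27b-3p lay between -0.09 and 0.15. Libraries did not overlap for 43.4% of all tested miRNAs in this comparison.

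The ratio of the arms of miR-23b was then taken within each library. There were 89.1, 134 and 87.2 reads of miR-23b-3p per read of miR-23b-5p for Ad-Yap WT, 331, 317 and 301 for Ad-Yap shRNA, and 53.9, 57.2 and 56.5 for Ad-GFP. The 3 groups did not overlap, and Ad-Yap WT replicate 2 stood above its group. Of all hairpins with arms paired by name, 46.8% did not overlap between Ad-Yap shRNA and Ad-GFP. Expressed as a share, the passenger made up 1.11%, 0.741% and 1.13% of the hairpin's reads for Ad-Yap WT, 0.301%, 0.315% and 0.332% for Ad-Yap shRNA, and 1.82%, 1.72% and 1.74% for Ad-GFP. The exact Clopper-Pearson 95% interval of the lowest share, in Ad-Yap shRNA replicate 1, was 0.243% to 0.370%, and that of the lowest Ad-GFP share, in replicate 2, was 1.62% to 1.82%. These intervals cover counting error only.

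The arm ratio was tested with limma in 126 hairpins, those with both arms among the tested miRNAs and names that differ only in the arm. The miR-24 hairpins were left out, since their 5p arms carry a locus number that miR-24-3p lacks. It shifted toward the guide by 2.49 on the log2 scale in Ad-Yap shRNA against Ad-GFP (SE 0.198, adjusted p = 8.09e-05, limma), and the shift stayed between 2.46 and 2.53 with any library left out. Of all 126 hairpins 26.98% passed in this comparison, 10.3% toward the 3p arm and 16.7% toward the 5p arm. Of the 34 that passed, 22 moved toward the arm with more reads and 12 toward the other. miR-23b ranked 8 of 126 by size and 2 by p, and 6 of the 118 with annotated names by size.

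Among annotated hairpins, the largest shifts in that comparison were those of miR-369 (5.44, adjusted p = 0.301), miR-674 (3.79, adjusted p = 3.29e-05), miR-434 (3.04, adjusted p = 0.582), miR-382 (2.93, adjusted p = 0.189) and miR-339 (-2.83, adjusted p = 0.00377, all limma). Only miR-674 and miR-339 of these 5 passed the test. The miR-23b shift was thus smaller than those 5. Its SE was 0.198, beside 0.247 for miR-674, 0.485 for miR-339, 1.54 for miR-382, 3.44 for miR-434 and 3.47 for miR-369.

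In Ad-Yap WT against Ad-GFP the miR-23b ratio shifted toward the guide by 0.86 (SE 0.198, adjusted p = 0.0604, limma). By limma, 3.17% of hairpins passed (1.59% toward each arm). The edgeR test of arm usage gave 0.85 with an adjusted p of 0.000566, and the share of all hairpins passing in that test was not counted. The groups did not overlap, as for 27.8% of the hairpins. Between the Yap viruses the ratio was lower in Ad-Yap WT by a log2 difference of -1.63 (SE 0.198, adjusted p = 0.00201, limma), where 8.73% of hairpins passed (6.35% toward the 3p arm and 2.38% toward the 5p arm) and 28.6% did not overlap, with miR-23b at rank 8 of 126 by size.

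**Figure D3:**
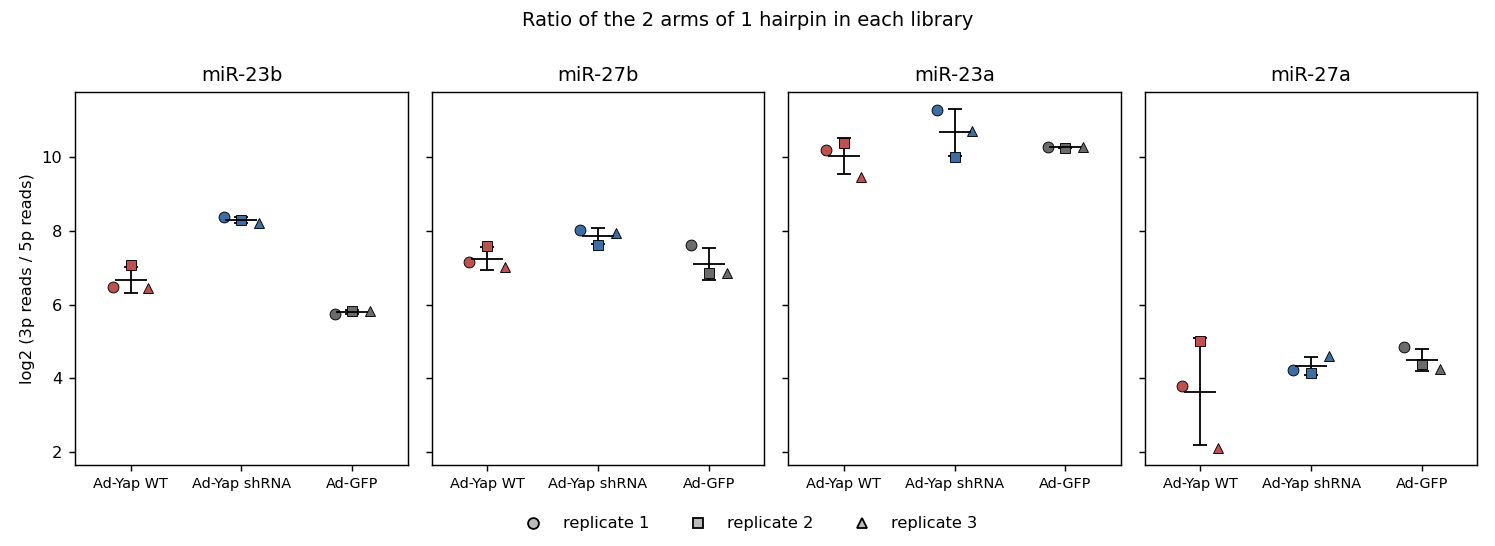
Log2 of 3p reads per 5p read in each library for the 4 hairpins of the clusters with arms paired by name. Shown are 1 symbol per replicate, a line at the mean and bars of 1 SD (n = 3). The miR-23b panel shows 3 separate groups, with means of 6.66 in Ad-Yap WT, 8.29 in Ad-Yap shRNA and 5.80 in Ad-GFP, while the groups overlap for miR-23a, miR-27a and, except between Ad-Yap WT and Ad-Yap shRNA, miR-27b.

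In Ad-Yap shRNA against Ad-GFP, the other hairpins of the clusters with arms paired by name moved less in their arm ratio than miR-23b. miR-27b, the neighbour of miR-23b on the same transcript, had 142, 193 and 130 reads of its 3p arm per 5p read for Ad-Yap WT, 261, 196 and 246 for Ad-Yap shRNA, and 196, 115 and 116 for Ad-GFP. Its shift in Ad-Yap shRNA against Ad-GFP was 0.75 (SE 0.274, adjusted p = 0.0790, limma). It passed without Ad-GFP replicate 1 (adjusted p = 0.0319, limma) and in the edgeR test of arm usage (adjusted p = 0.00353), again without a counted share of all hairpins. miR-23a, whose 5p arm had 13 to 49 reads per library, shifted by 0.40 (SE 0.355, adjusted p = 0.464, limma). miR-27a shifted by -0.18 (SE 0.619, adjusted p = 0.865, limma). For Ad-Yap WT against Ad-GFP, miR-27a, with its uneven 3p arm, shifted by -0.86 (SE 0.619, adjusted p = 0.431, limma). That was as large as the 0.86 of miR-23b, but toward the 5p arm. In the same comparison miR-23a shifted by -0.24 (adjusted p = 0.665, limma) and miR-27b by 0.14 (adjusted p = 0.737, limma). Whether the shift of miR-23b exceeded that of the other hairpins was not tested.

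**Figure D4:**
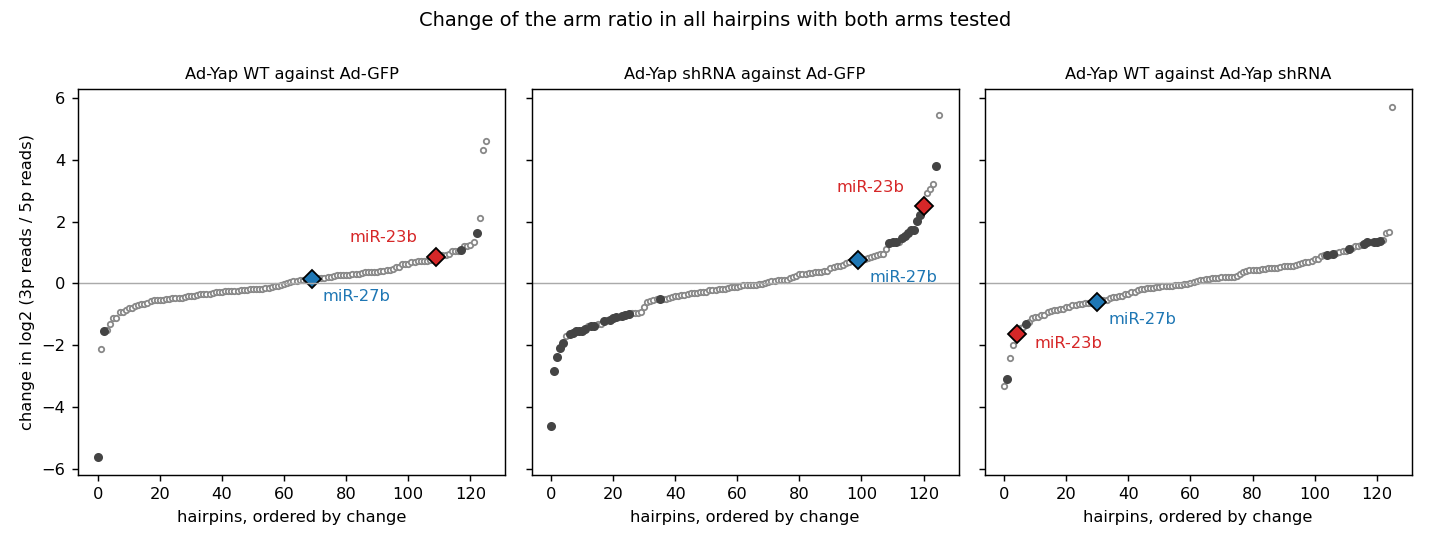
Change of the log2 ratio of 3p to 5p reads in all 126 hairpins with arms paired by name, ordered by size in each comparison. Filled circles mark a limma adjusted p under 0.05. Red and blue diamonds mark miR-23b and miR-27b whatever their p. miR-23b lies near the upper end in the middle panel (2.49) and near the lower end for Ad-Yap WT against Ad-Yap shRNA (-1.63).

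Of the arms outside the 6 members, 1 of 6 passed in each comparison with Ad-GFP, beside the 25.04% of all tested miRNAs for Ad-Yap WT and the 41.8% for Ad-Yap shRNA. miR-27b-5p, the passenger beside miR-23b, had 33.5, 40.2 and 39.5 CPM in Ad-Yap shRNA, against 49.3, 87.7 and 81.4 CPM in Ad-GFP. It fell by 0.95 on the log2 scale in Ad-Yap shRNA (SE 0.239, adjusted p = 0.0145, edgeR), a call lost without Ad-Yap shRNA replicate 1 (adjusted p = 0.0701) or 3 (adjusted p = 0.0516). miR-27a-5p, from the other locus, had 940, 882 and 863 CPM in Ad-Yap WT, against 476, 633 and 591 CPM in Ad-GFP. It rose in Ad-Yap WT by 0.66 under TMM (SE 0.114, adjusted p = 0.00665, edgeR), with -0.62 (adjusted p = 0.209) under the implied library totals, and the call was lost with the summed miRNA count (adjusted p = 0.131) or without a filter (adjusted p = 0.106). It had 0.25 (adjusted p = 0.123, edgeR) in Ad-Yap shRNA, and was higher in Ad-Yap WT than in Ad-Yap shRNA by 0.41 (adjusted p = 0.0309, edgeR), a call lost in 7 of the 9 fits that leave out a library. miR-23a-5p, with 13 to 49 reads per library, did not pass in any comparison.

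The loci of miR-24 can be told apart only by the 5p arm. miR-24-2-5p and miR-24-1-5p have the same seed (UGCCUAC) and differ at 5 of 22 positions (A17U, C19U, A20C, G21A and U22G, counted from the 5′ end).
miR-24-2-5p: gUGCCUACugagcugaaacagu
miR-24-1-5p: gUGCCUACugagcugauaucag
The arm from the 23a locus was far more abundant, with 53.4, 48.3 and 51.4 reads of miR-24-2-5p per read of miR-24-1-5p for Ad-Yap WT, 35.9, 34.3 and 39.9 for Ad-Yap shRNA, and 39.8, 36.8 and 43.8 for Ad-GFP. The Ad-Yap WT libraries were higher than all others, while Ad-Yap shRNA and Ad-GFP overlapped. miR-24-2-5p did not pass in any comparison (log2 fold changes against Ad-GFP of 0.24 for Ad-Yap WT and 0.23 for Ad-Yap shRNA) beside 1.00 for miR-24-3p in Ad-Yap shRNA, and the difference between arms was not tested. miR-24-1-5p was lower in Ad-Yap WT than in Ad-Yap shRNA by 0.46, a log2 fold change of -0.46 (SE 0.135, adjusted p = 0.0374, edgeR), a call lost in 8 of the 9 fits that leave out a library, and it was 0.47 under the implied totals. miR-3074, annotated on the opposite strand of Mir24-1, had 7 to 17 reads per library and did not pass in any comparison. Whether the counting used strand is not stated.

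Ratios between members within a library avoid the scaling altogether. How often such ratios separate the groups among other pairs of miRNAs was not counted. miR-23a-3p had 1.04, 1.13 and 0.992 reads per read of miR-23b-3p for Ad-Yap WT, 1.20, 1.18 and 1.15 for Ad-Yap shRNA, and 0.957, 0.946 and 0.982 for Ad-GFP. The 3 groups did not overlap, and the paralog from the 23a locus was the more abundant in every Ad-Yap shRNA library and the less abundant in every Ad-GFP library. As stated above, the split of reads between these paralogs is uncertain. Against Ad-GFP, the log2 difference was 0.13 for Ad-Yap WT and 0.29 for Ad-Yap shRNA. Each has p = 0.1 by a two-sided exact permutation test, the smallest that 3 against 3 libraries allow (0.167 after adjustment over 15 such tests).

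The proportion of the guides of the 23b locus also lay apart between the groups. There were 1.52, 1.67 and 1.73 reads of miR-23b-3p per read of miR-27b-3p for Ad-Yap WT, 1.86, 2.02 and 1.76 for Ad-Yap shRNA, and 1.43, 1.41 and 1.40 for Ad-GFP. No groups overlapped, with log2 differences from Ad-GFP of 0.21 for Ad-Yap WT and 0.41 for Ad-Yap shRNA (exact permutation p = 0.1 for each). miR-24-3p had 0.741, 0.803 and 0.834 reads per read of both miR-23 guides for Ad-Yap WT, 0.962, 1.19 and 0.919 for Ad-Yap shRNA, and 0.745, 0.512 and 0.772 for Ad-GFP. Ad-Yap shRNA lay above both other groups (0.61 against Ad-GFP on the log2 scale, exact permutation p = 0.1), while Ad-Yap WT and Ad-GFP overlapped. The ratio of miR-27a-3p to miR-27b-3p overlapped in every comparison. Its log2 differences from Ad-GFP were -0.14 for Ad-Yap WT and 0.23 for Ad-Yap shRNA (exact permutation p = 0.9 and 0.2). The ratio of miR-23a-3p to miR-27a-3p lay apart only between Ad-Yap shRNA and Ad-GFP (0.47, exact permutation p = 0.1).

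**Figure D5:**
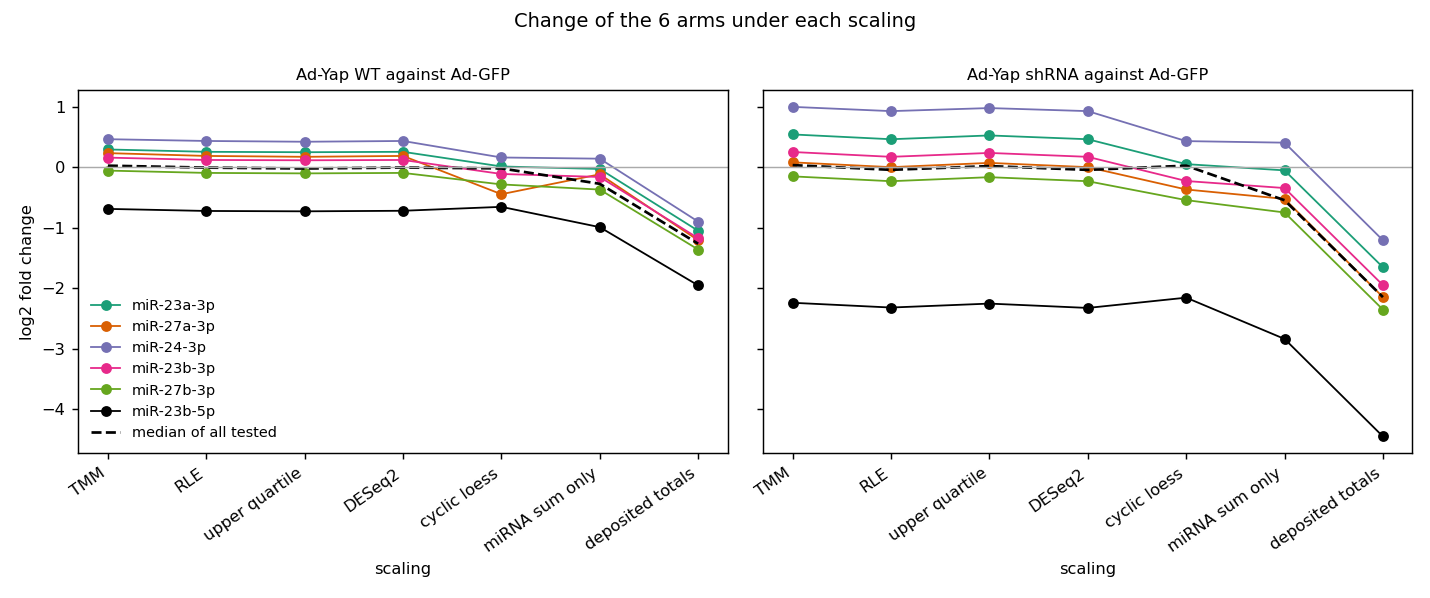
Log2 fold change of each member under 7 ways of scaling the libraries, with the median of all tested miRNAs as a dashed line, for both Yap viruses against Ad-GFP. miR-23b-5p is below the median under each of the 7 scalings and in both panels, and miR-24-3p is above it in each, although its own value turns negative under the implied library totals (-0.90 for Ad-Yap WT, -1.21 for Ad-Yap shRNA).

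The miRNAs with the most similar profile were found by Pearson's r of log2 CPM over the 9 libraries, which share depth and scaling and fall into 3 groups, so r is a description only. miR-23a-3p was closest to miR-99b-5p (0.968), miR-19b-3p (0.959) and its paralog miR-23b-3p (0.952). miR-23b-3p was closest to miR-23a-3p (0.952), miR-99b-5p (0.944) and miR-99a-5p (0.937). miR-24-3p was closest to miR-19a-3p (0.961), miR-500-3p (0.954) and miR-154-3p (0.939). The guides miR-23b-3p and miR-27b-3p, made from 1 transcript, had r = -0.171, and miR-23a-3p and miR-27a-3p had r = 0.307.

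miR-23b-5p had quite different neighbours from its guide, namely miR-99a-3p (0.986), miR-199a-3p (0.984) and miR-212-3p (0.970), and its r with miR-23b-3p was -0.797. miR-199a-3p, one of the listed fibroblast markers, fell by 1.67 on the log2 scale in Ad-Yap shRNA against Ad-GFP (SE 0.111, adjusted p = 5.56e-05, edgeR). The uneven miR-27a-3p was closest to miR-490-5p (0.935), miR-208a-3p (0.916) and miR-296-5p (0.912). miR-27b-3p had the weakest neighbours, miR-20b-5p (0.890), miR-3588 (0.815) and miR-31b (0.791).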

How the data were processed

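Small RNA libraries were made with the MGIEasy kit and read as single-end 50 base reads, per the labels' protocols, which also describe an mRNA enrichment step. Bowtie2, DESeq2 and rn6 are listed in the submitters' processing notes without versions or roles. Read counts per miRNA were deposited by the authors as whole numbers without normalization, with RPM values that the authors computed on a total larger than the summed miRNA counts; what that total counts is not stated. RPM values served only to derive those totals (13.7 to 22.1 M per library).

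Counts were tested with edgeR 4.0.16 in R 4.3.3 (filterByExpr, TMM, glmQLFit and glmQLFTest, all 9 libraries in 1 fit, Benjamini-Hochberg over 579 miRNAs, threshold 0.05, common biological CV 45.1%). SE is the absolute log2 fold change over the square root of F. Arm ratios, log2 of (3p count + 0.5) over (5p count + 0.5), were tested with limma 3.58.1 (trend) over 126 hairpins. Ratios of members were compared by exact permutation. All p-values are two-sided. Alternatives were RLE, upper quartile, summed count and implied totals as scaling, cyclic loess, DESeq2 1.42.0, 2 filters, 2-group fits, a replicate block, each library left out, and for arm ratios a pseudocount of 5 and edgeR's diffSpliceDGE. The fits were also run on simulated data, and their rates of recovered and false calls are not given here.

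Named were the 6 members, the other listed arms of their hairpins, the 3 annotated miRNAs closest in profile to each member, and the 5 annotated hairpins with the largest arm shift. miR-199a-3p is named as a neighbour and a marker. Of the other marker lists, the 2 endothelial markers summed to 5002 to 5852 CPM in Ad-Yap WT, 6172 to 7429 CPM in Ad-Yap shRNA and 3581 to 4480 CPM in Ad-GFP, and the 2 smooth muscle and pericyte markers to 13061 to 14790 CPM in Ad-Yap WT, 16454 to 21834 CPM in Ad-Yap shRNA and 13867 to 14692 CPM in Ad-GFP. The 5 blood cell markers summed to 245 to 545 CPM in Ad-Yap WT, 334 to 439 CPM in Ad-Yap shRNA and 479 to 658 CPM in Ad-GFP. The members and lists were chosen with earlier results of these data known. PCR reads without molecular identifiers are not independent molecules.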

Additional observations from a re-analysis of the deposited data

How the results depend on the processing

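Of 1116 values recomputed under alternatives, 1004 kept their side of the threshold or their size (45 of these changed sign but passed under neither setting), 45 lost and 29 gained a call, 17 reversed and 21 counts moved by over 1.5 times. The number of members passing for Ad-Yap WT against Ad-GFP (1) was 2 with the summed miRNA count or DESeq2, 5 with the implied library totals and 0 to 2 with libraries left out. For Ad-Yap shRNA against Ad-GFP (4) it was 2 without a filter, 3 with RLE or upper quartile factors and 3 to 4 with libraries left out. With the summed miRNA count it was also 4, but miR-24-3p alone was higher. There miR-23b-3p, miR-27b-3p and miR-23b-5p passed as lower. With the implied library totals every member passed as lower in this comparison. For Ad-Yap WT against Ad-Yap shRNA (1) it was 2 with RLE or upper quartile factors, the summed miRNA count, DESeq2, at least 10 CPM in 3 libraries or 2-group fits, and 1 to 3 with libraries left out. All miRNAs passing for Ad-Yap WT against Ad-GFP (145) numbered 322 with implied totals, 90 without a filter and 71 to 148 with libraries left out (71 without Ad-Yap WT replicate 3, and 83, 96 and 96 without Ad-GFP replicates 1, 2 and 3). For Ad-Yap shRNA against Ad-GFP (242) they numbered 493 with implied totals and 191 to 245 with libraries left out, and for Ad-Yap WT against Ad-Yap shRNA (165) 125 to 164 with libraries left out. The split of higher to lower calls was 89 to 56, 139 to 103 and 82 to 83 in these 3 comparisons, 74 to 71 in the first with upper quartile factors, 51 to 104, 66 to 221 and 114 to 38 with the summed count, and 10 to 312, 14 to 479 and 110 to 8 with implied totals.

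Reversals came with 3 scalings. With the summed count, Ad-Yap shRNA against Ad-GFP gave -0.048 for miR-23a-3p and -0.34 for miR-23b-3p, and cyclic loess gave -0.22 for miR-23b-3p. With implied totals, Ad-Yap WT against Ad-GFP gave -1.05 for miR-23a-3p, -0.90 for miR-24-3p, -1.17 for miR-23b-3p and -0.62 for miR-27a-5p. Ad-Yap shRNA against Ad-GFP gave -1.65 for miR-23a-3p, -2.15 for miR-27a-3p, -1.21 for miR-24-3p, -1.95 for miR-23b-3p, -2.06 for miR-23a-5p, -1.96 for miR-27a-5p, -2.0 for miR-24-2-5p, -1.86 for miR-24-1-5p and -1.42 for miR-3074. Ad-Yap WT against Ad-Yap shRNA gave 0.47 for miR-24-1-5p. These follow the shift of the median of all miRNAs by -1.29, -2.19 and 0.89 from TMM to implied totals. The miR-23b arm ratio for Ad-Yap WT against Ad-GFP passed with edgeR's diffSpliceDGE (0.85, adjusted p = 0.000566), where the share of all hairpins passing was not counted.

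The labels do not say that same-numbered libraries share more than a number. Of 9 correlations of their deviations from the group means, 1 was over 0.1 (range -0.339 to 0.336). With 3 libraries a group, these values cannot show whether an isolation or batch was shared. With the replicate block 132, 228 and 160 miRNAs passed in the 3 comparisons, and of the 6 members only miR-23b-3p in Ad-Yap shRNA lost its call (adjusted p = 0.0623, edgeR). Depth limits miR-23b-5p, with 65 to 91 reads in Ad-Yap shRNA, more than the guides.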
